A study of Mus musculus with 4 samples.

Results

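Interferon-stimulated genes are the genes that cells switch on when an interferon reaches them, and 44 of them were followed here in the lung of mice that carried a tumor, exercised, did both or did neither. They were taken by symbol from a list of antiviral effectors, nucleic acid sensors, transcription factors and other known interferon targets, and all 44 were found among the 23282 rows of the data. Lung RNA of CDF1 mice was sequenced in 4 libraries, 1 per group. The groups crossed high-intensity treadmill exercise (E) with tumor (T): E(-)T(-) had neither, E(+)T(-) exercised, E(-)T(+) carried a tumor at rest and E(+)T(+) carried a tumor and exercised. The tumor was made by injecting CT26, a colorectal carcinoma line of the mouse, into the tail vein, so tumor in the lung arrived through the blood and did not arise there. Per the labels every group held 10 mice at postnatal day 28. The study bought its mice at 4 weeks of age and took tissues at the end of the experiment, after the injection. The label thus goes with the age at purchase, and the mice were older when the lungs were taken. Neither the labels nor the methods say whether a lung library came from 1 mouse or from a pool. For calf muscle the study names a representative mouse of each group, and it treats the lungs in a like way. Every difference below therefore compares 1 library with another, has no replicate check and carries no p-value.

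Type I interferons (interferon alpha and beta) and type III interferons (lambda) act through receptors that use the kinases Jak1 and Tyk2 and lead to a complex that holds Stat2 and Irf9 and binds the interferon-stimulated response element (ISRE). Type II interferon (gamma) acts through Jak1 and Jak2 and leads to binding at the gamma-activated site (GAS). Guanylate-binding proteins, the immunity-related GTPases and Irf1 are well-known targets of interferon gamma, while Isg15, the IFIT genes, Rsad2 and the OAS genes are well-known targets of the type I interferons, and many genes answer to both. In the lung this response is best known as the first defence against respiratory viruses.

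Many members hold ISRE letters in their promoters. RefSeq promoter windows of 300 bases, from 250 before to 50 after an annotated transcript start on the build GRCm38.p6, were matched by symbol for 34 of the 44 genes. The other 10 (Mx1, Mx2, Oas2, Usp18, Dhx58, Rtp4, Zbp1, Parp9, Parp14 and Iigp1) had no window. The ISRE was searched on both strands as GAAA, any 2 bases and GAAA again, and the GAS as TTCNNNGAA, which reads the same on both strands. ISRE letters stood in a window of 20 of the 34 genes (58.8%), against 3.99% of all genes with a window. GAS letters stood in 11 of the 34 (32.4%), against 9.55% of all genes. Of the 34, 7 held both, 13 the ISRE letters alone, 4 the GAS letters alone and 10 neither. A match describes letters and not a site in use, and the absence of one says only that these letters are not in the window.

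The 5 promoters printed here were chosen because their genes recur below: an IFIT gene and the modifier gene Isg15 as textbook ISRE promoters, Rsad2 with the highest exercise difference among tumor-bearing lungs, and the GTPase genes Igtp and Gbp5, whose windows hold both kinds of letters. Each is 300 bases, read 5′ to 3′ on the strand of the gene, with ISRE letters in capitals. The windows are chr19:34640639-34640938 on the plus strand for Ifit1, chr4:156200769-156201068 on the minus strand for Isg15, chr12:26456403-26456702 on the minus strand for Rsad2, chr11:58199306-58199605 on the plus strand for Igtp and chr3:142496684-142496983 on the plus strand for Gbp5. The last 50 bases of each window belong to the transcript.
Ifit1: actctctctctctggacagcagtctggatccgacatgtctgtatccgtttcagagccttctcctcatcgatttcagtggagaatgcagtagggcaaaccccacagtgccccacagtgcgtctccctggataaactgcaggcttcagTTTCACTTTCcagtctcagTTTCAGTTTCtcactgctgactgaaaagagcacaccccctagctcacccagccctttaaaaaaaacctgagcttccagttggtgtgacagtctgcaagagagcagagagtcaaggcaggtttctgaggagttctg
Isg15: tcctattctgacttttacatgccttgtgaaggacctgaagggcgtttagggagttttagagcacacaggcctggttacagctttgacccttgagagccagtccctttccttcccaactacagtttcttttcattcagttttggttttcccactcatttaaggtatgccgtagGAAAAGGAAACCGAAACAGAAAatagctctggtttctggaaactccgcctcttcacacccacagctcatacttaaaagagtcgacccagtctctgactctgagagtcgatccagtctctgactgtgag
Rsad2: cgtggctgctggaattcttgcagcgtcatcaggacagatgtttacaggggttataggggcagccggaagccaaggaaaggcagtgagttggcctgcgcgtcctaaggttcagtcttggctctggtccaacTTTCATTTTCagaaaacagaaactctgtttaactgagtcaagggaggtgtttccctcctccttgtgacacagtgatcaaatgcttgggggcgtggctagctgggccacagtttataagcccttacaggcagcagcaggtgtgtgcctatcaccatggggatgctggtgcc
Igtp: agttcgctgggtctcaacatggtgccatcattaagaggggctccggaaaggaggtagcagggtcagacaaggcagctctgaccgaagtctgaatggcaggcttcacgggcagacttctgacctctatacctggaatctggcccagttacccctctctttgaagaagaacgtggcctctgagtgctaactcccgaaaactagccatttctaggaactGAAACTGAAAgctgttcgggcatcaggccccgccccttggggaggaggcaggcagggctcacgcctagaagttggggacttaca
Gbp5: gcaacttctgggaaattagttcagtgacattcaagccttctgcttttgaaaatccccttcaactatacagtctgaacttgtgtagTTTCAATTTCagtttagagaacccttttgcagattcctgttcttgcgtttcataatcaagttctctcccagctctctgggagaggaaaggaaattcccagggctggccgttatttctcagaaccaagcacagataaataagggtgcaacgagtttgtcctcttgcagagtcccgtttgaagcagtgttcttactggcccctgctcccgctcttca

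The ISRE letters of Ifit1 began 104 and 85 bases before the start. Those of Isg15 overlapped and began 78, 72 and 66 bases before the start. Rsad2 held a single match 120 bases before its start. In Igtp the ISRE letters began 34 bases and the GAS letters 45 bases before the start. In Gbp5 the ISRE letters began 165 bases before the start, and the GAS letters 245 and 52 bases before it. Over the members the windows held 31 ISRE matches, and 22 of them began within the 150 bases before the start.

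**Figure D1:**
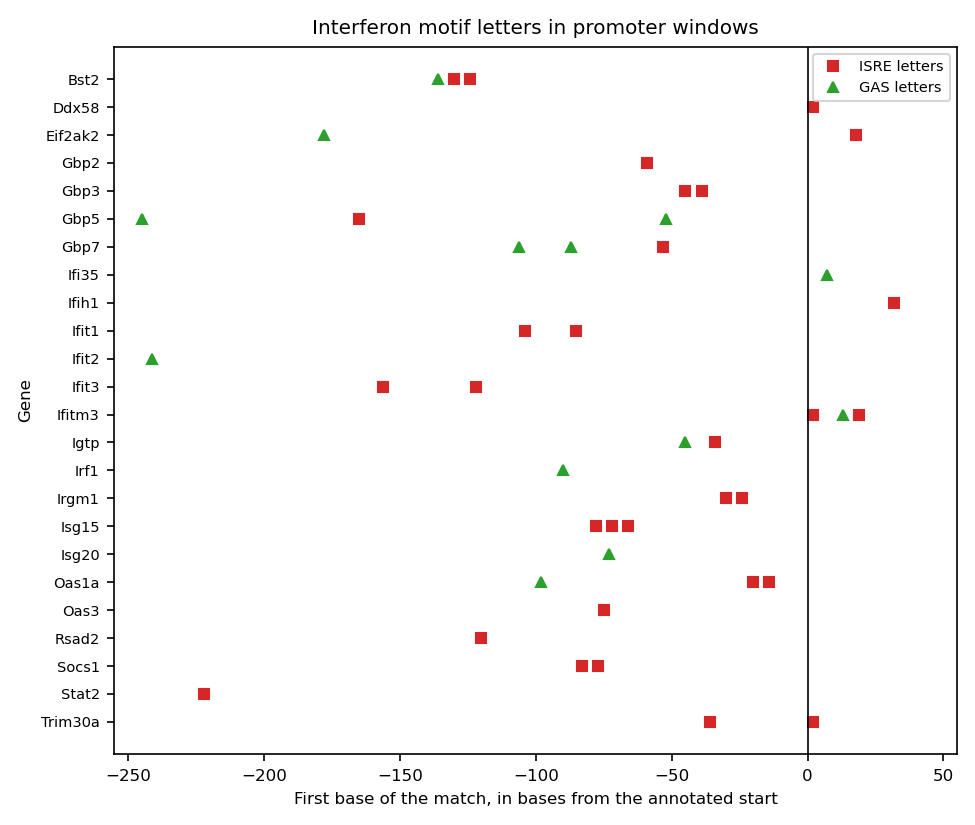
First base of each ISRE match (red squares) and GAS match (green triangles) in bases from the annotated start, 1 line per gene with a match; the black line marks the start. Of 31 ISRE matches, 22 begin in the 150 bases before the start.

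The libraries held 9354530 to 13368070 recovered reads, and E(-)T(+) was the smallest. A depth of 3 reads corresponded to 0.224 to 0.321 CPM (counts scaled to equal library totals). Both tumor libraries stood apart in their makeup. Hemoglobin genes took 1.43% of the reads of E(-)T(+) and 31.4% of those of E(+)T(+), against 14.2% and 14.3% in the tumor-free libraries. In E(-)T(+) the summed markers of endothelium and epithelium were low: the 8 endothelial markers summed to a normalized count of 3757 there and to 29282 to 43171 in the other libraries, and the 11 alveolar epithelial markers to 34063 against 188770 to 283104. The 6 fibroblast markers went the other way, with 36634 there and 9503 to 14501 elsewhere. The 8 markers of tumor-associated macrophages summed to 18346 in E(-)T(+) and to 1618 to 5885 elsewhere. In E(+)T(+) the 11 detected neutrophil markers summed to 210587 against 4076 to 12480 elsewhere. No alveolar, airway or endothelial marker was at 0 reads in any of the 4 libraries, which is only a weak check of the label of lung. The tumor genes Krt20, Crabp1, Etv4 and Osr2 had no read in E(-)T(-), but 12 to 141 reads in the exercised library without tumor, which is 1.13 to 1.47% of their level in E(-)T(+). They come from a list of 8 tumor markers, of which 4 lay above and 4 below the level of E(-)T(-) in E(-)T(+). In bulk RNA, fewer cells of a type and less RNA per cell cannot be told apart.

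All 44 genes passed the filter, which asked that the normalized count average 4 or more over the libraries, and 15164 rows did so in all. The lowest mean among the members was 12.7, and the lowest count of a member in any library was 4 reads. A gene is called higher or lower below when its values differ at least 2-fold, that is by 1 or more on the log2(normalized count + 1) scale. Where 4 values of a gene follow each other, they are normalized counts (unless called reads) of the untreated resting lung E(-)T(-), the exercised lung E(+)T(-), the resting tumor lung E(-)T(+) and the exercised tumor lung E(+)T(+), always in that order. Brackets after a log2 difference give the 95% exact interval of the read ratio, which covers counting error only.

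By normalized count the members were highest most often in the exercised tumor lung and lowest most often in the resting tumor lung. Of the 44, 22 had their highest value in E(+)T(+), where 22.3% of all rows did, and 17 in E(-)T(-), where 22.5% did. Only 4 were highest in E(+)T(-) and 1, Ifit2, in E(-)T(+), against 19.7% and 35.5% of all rows. The lowest value lay in E(-)T(+) for 24 members, where 36.9% of all rows had theirs, in E(+)T(-) for 9, in E(-)T(-) for 7 and in E(+)T(+) for 4. The remaining shares for all rows were 18.3%, 22.1% and 22.6%. All 4 values lay within 2-fold for 11 members (25%), against 34.0% of all rows. The counts of 22 and 24 depended on the scaling. By library totals alone Gbp2, Gbp3 and Mx2 were lower in E(+)T(+) than in E(-)T(-). On that scale Oas3, Oasl1, Dhx58, Ifitm3 and Socs1 were lower there than in E(-)T(+), as were Irf9 and Gbp7. By totals without hemoglobin genes and Rn45s, Gbp2 and Gbp3 also fell below E(-)T(-), and Mx2 fell below E(+)T(-).

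**Figure D2:**
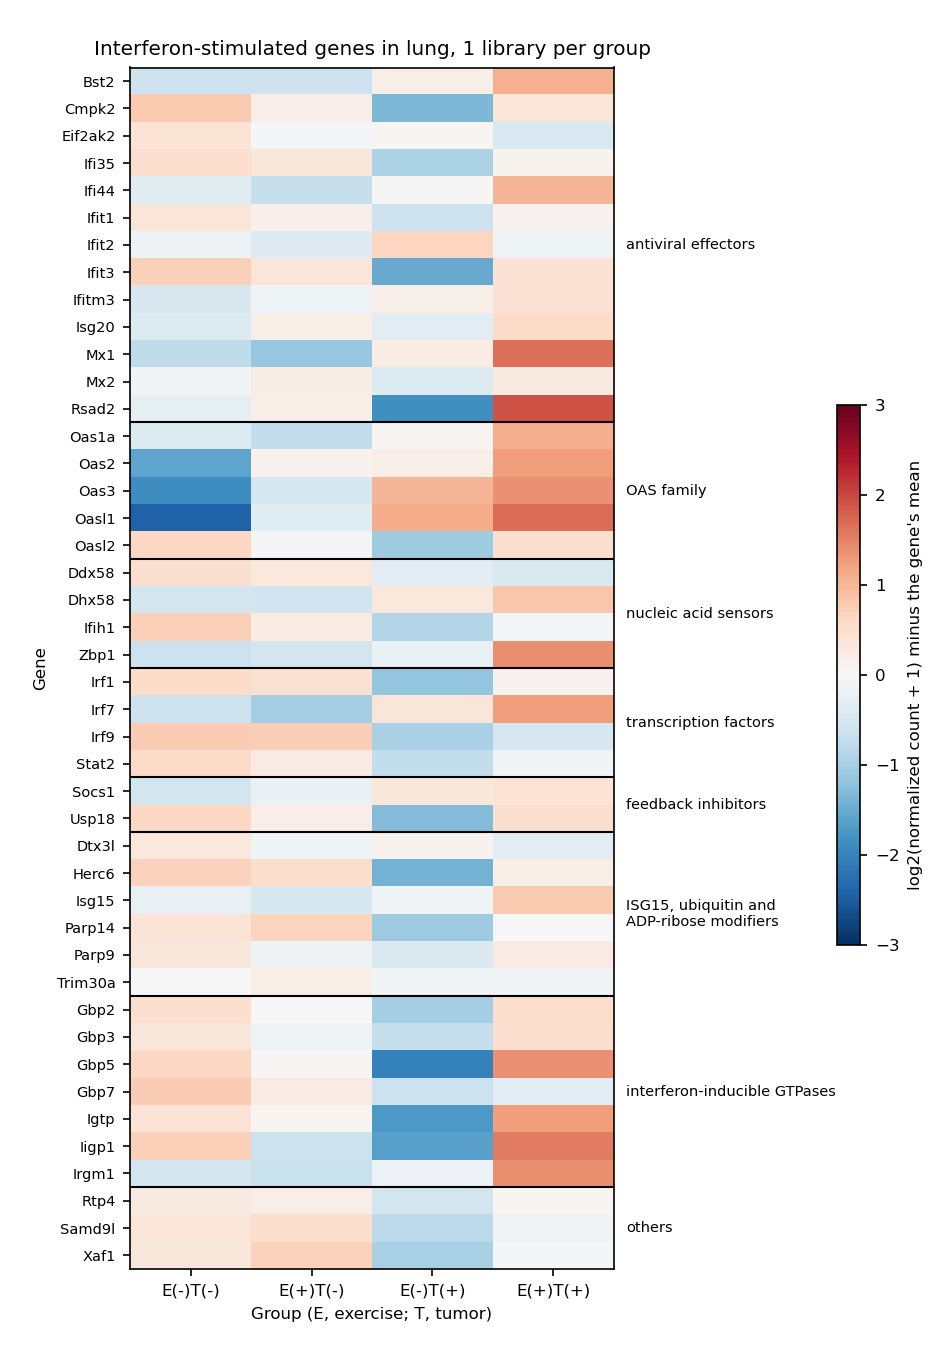
Each cell is the log2(normalized count + 1) of 1 gene in 1 library minus the mean of that gene over the 4 libraries, with genes in role groups and 1 library per column. On this scale the column of E(-)T(+) holds the lowest value of 24 genes and that of E(+)T(+) the highest value of 22.

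In the tumor-free lungs most members differed less than 2-fold with exercise. In E(+)T(-) against E(-)T(-), 3 of the 44 were higher past 2-fold, where 5.28% of all rows were, and 1 was lower, where 4.70% were, and 9.98% of all rows lay past 2-fold in either direction. The higher ones were Oasl1, Oas2 and Oas3, all of the OAS family and all with few reads, and the lower one was Iigp1. The median difference over the members was -0.19, and over all rows 0.00. The value was below 0 for 31 members and above 0 for 13. With a filter of 50 on the mean normalized count 0 members were higher. In the same comparison 8 of 11 detected neutrophil markers were higher past 2-fold and none lower (median 1.61). Of 10 markers of dividing cells, 5 were higher and 1 lower. No endothelial or alveolar epithelial marker was past 2-fold. The part of these cells in the result was not tested.

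Tumor without exercise went with lower levels of many members. In E(-)T(+) against E(-)T(-), 20 of the 44 (45.5%) were lower past 2-fold, where 25.7% of all rows were, and 3 (6.82%) were higher, where 20.6% were, out of 46.2% of all rows past 2-fold in either direction. The median was -0.84, and over all rows -0.03. Lower members came from every role group, and the higher ones were again Oasl1, Oas3 and Oas2. Scaling by library totals alone or by median-of-ratios factors gave 5 higher members, and totals alone ended the lower call of Gbp3. With a filter of 50 on the mean normalized count 0 were higher.

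With tumor, the exercised lung was above the resting lung for most members. In E(+)T(+) against E(-)T(+), 19 of the 44 (43.2%) were higher past 2-fold, where 24.3% of all rows were, and none was lower, where 17.7% were, out of 42.0% in either direction. The median was 0.91, and over all rows 0.01. Scaling by library totals alone lowered these figures to 8 higher and 3 lower with a median of 0.31, while the median of all rows moved to -0.59. The 8 members still higher were Rsad2, Gbp5, Iigp1, Igtp, Ifit3, Usp18, Cmpk2 and Zbp1, and the other 11 lost the call. This comparison and the tumor effect without exercise share the library E(-)T(+), so the 14 members that were lower in that effect and higher in this one (31.8%, against 17.4% of all rows) rest on the same value of that library in both. Beside this stand the marker lists: all 8 endothelial, all 11 alveolar epithelial and 8 of 9 detected T cell markers were also higher past 2-fold in E(+)T(+) than in E(-)T(+), as were 10 of 11 neutrophil markers (median 4.18) and all 11 erythroid markers (median 5.12). None of 6 fibroblast markers, 8 tumor-associated macrophage markers and 5 natural killer cell markers past the filter was above 0 in it. The part of these cells in the result was not tested.

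Tumor with exercise, a comparison that leaves E(-)T(+) out, gave higher levels for a part of the members. In E(+)T(+) against E(+)T(-), 16 of the 44 (36.4%) were higher past 2-fold, where 14.9% of all rows were, and 1, Irf9, was lower, where 13.0% were, out of 27.9% in either direction. The median was 0.40, and over all rows 0.00 at 2 decimals. By library totals alone 5 members were lower and the median was -0.01. All 11 detected neutrophil markers, 4 of 7 monocyte markers and all 8 markers of tumor-associated macrophages were higher past 2-fold in the same comparison, and their part in the result was not tested. Against the untreated resting lung E(-)T(-), the library E(+)T(+) was higher past 2-fold for 13 members (29.5%, all rows 14.8%) and lower for 2, Irf9 and Gbp7 (4.55%, all rows 14.4%), with a median of 0.03. Of all rows 29.2% were past 2-fold in either direction there. By library totals alone 10 members were higher there and 8 lower, with a median of -0.47, and Isg15, Dhx58 and Ifi44 lost the call. With a filter of 50 on the mean normalized count 8 were higher there and the median was -0.13. Totals without hemoglobin genes and Rn45s gave 4 lower and a median of -0.15.

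**Figure D3:**
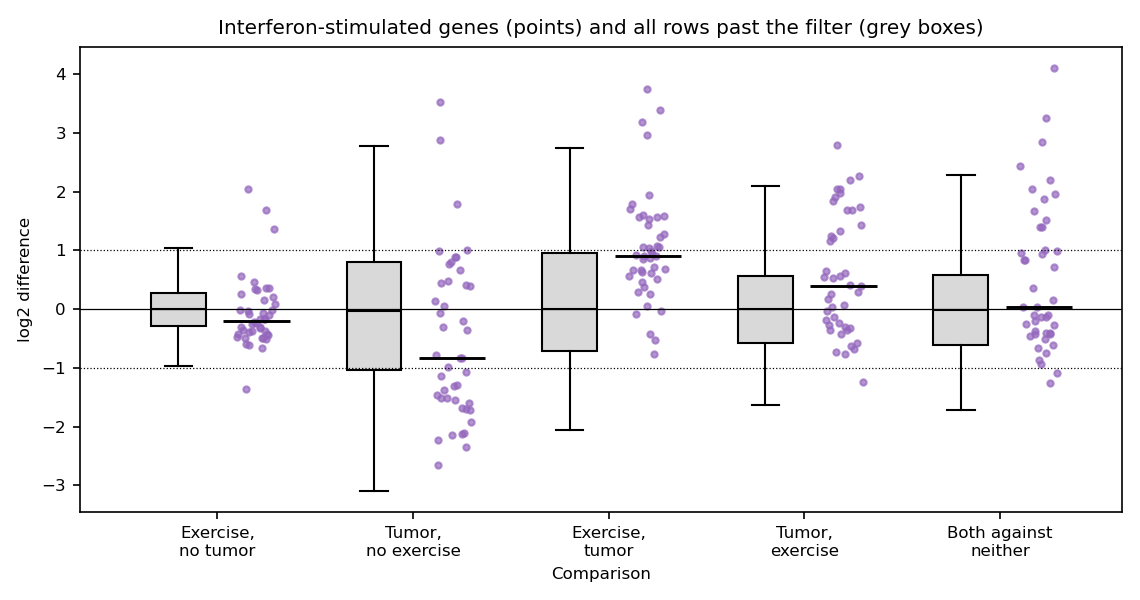
Log2 differences of the 44 members (points, with a black line at their median) in the 5 comparisons, beside all 15164 rows past the filter (grey boxes from the first to the third quartile, whiskers at the 5th and 95th percentile); dotted lines mark 2-fold. The members' median is -0.84 for tumor without exercise and 0.91 for exercise with tumor; both use the library E(-)T(+).

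The exercise effect was larger on the log2 scale with tumor than without for most members, a difference that 1 library per group leaves untested. The difference between the exercise effects was above 0 for 36 of 44 members, where 50.5% of all rows were above 0, with a median of 1.03 against 0.02. It was past 2-fold upward for 22 members (50%), where 26.0% of all rows were, and downward for 1, Oasl1, where 18.9% were. By library totals alone the upward count was 14. Oas2 and Iigp1 were past 2-fold in both exercise effects (4.55%, against 6.21% of all rows): Oas2 was higher in both, and Iigp1 was lower without tumor and higher with it.

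**Figure D4:**
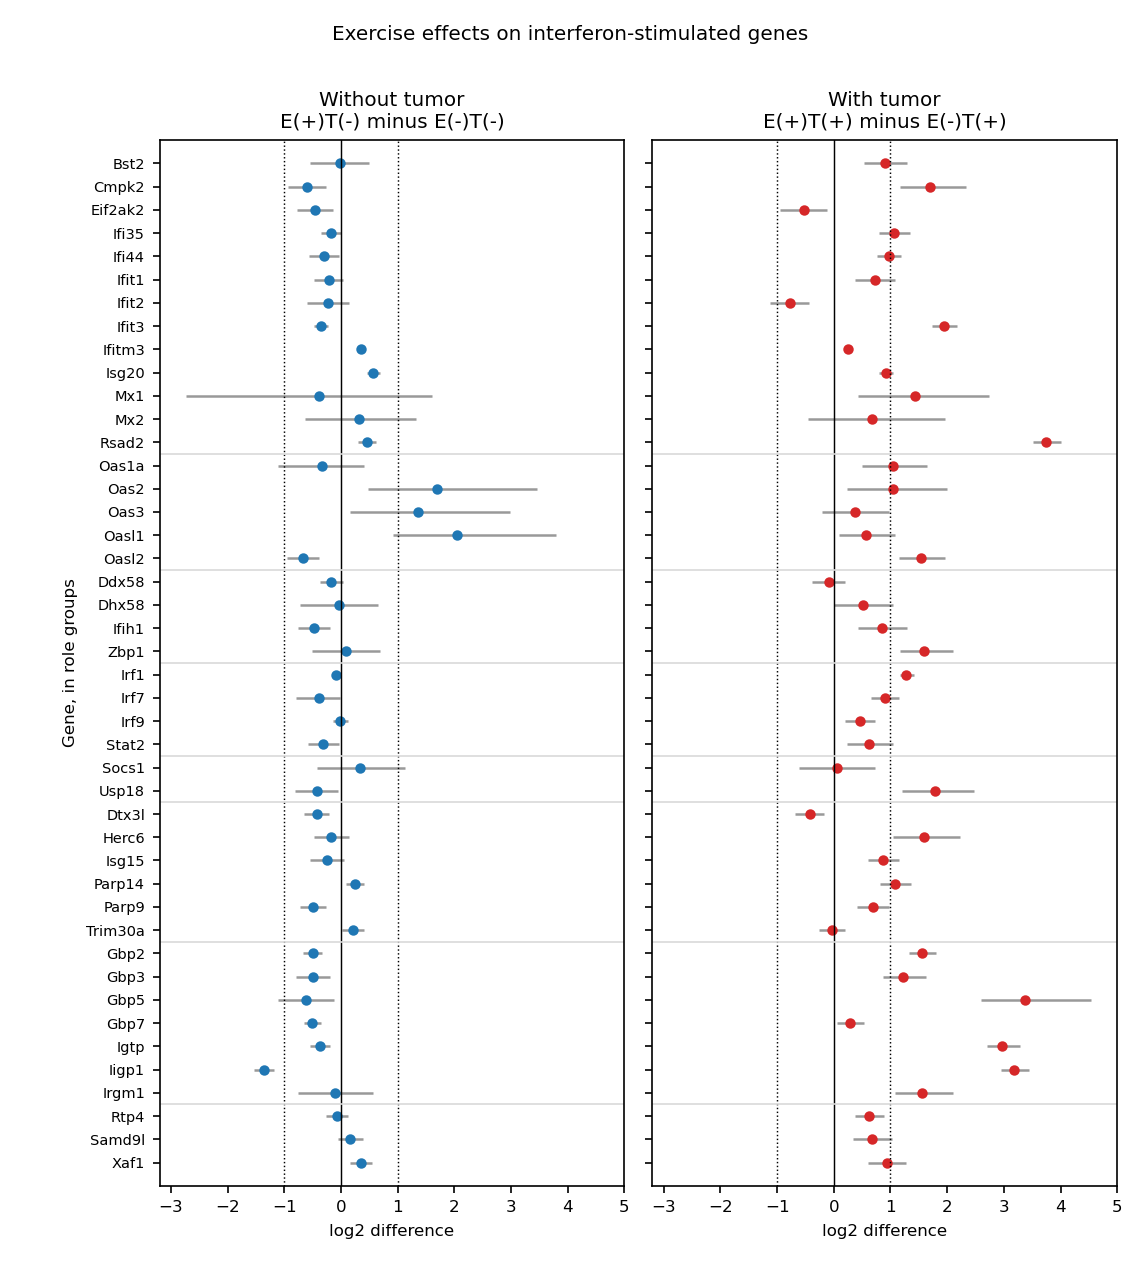
Log2 difference for exercise without tumor (blue) and with tumor (red) for each of the 44 genes, with the 95% exact interval of the read ratio as a grey line; dotted lines mark 2-fold. Without tumor 3 genes lie above and 1 below the dotted lines, and with tumor 19 lie above and none below.

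The interferons themselves were almost without reads. Of 23 listed ligands, 21 had a row and 19 of these had no read in any library, among them every listed gene of interferon alpha, beta and lambda with a row. The limit that a count of 0 allows here is the depth of 3 reads given above. Ifnz had 1 read, in E(-)T(-). Ifng, the gene of interferon gamma, had 8 reads in the untreated resting lung, 7 with exercise, 0 in the resting tumor lung and 4 in the exercised tumor lung. Against E(-)T(-), Ifng was called lower in E(-)T(+), where 0 reads stand against 8 and the upper bound of the log2 ratio was -0.40. Differences in Ifng between the libraries that had any read were not detectable at this depth.

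All 6 receptor genes with a row were detected. Ifnlr1, the specific chain of the lambda receptor, had a normalized count of 169, 130, 24.2 and 60.9. It was lower in both tumor libraries, by 2.76 on the log2 scale at rest and by 1.08 with exercise. Ifnar1, a chain of the alpha and beta receptor, stayed within 2-fold, with 190, 107, 112 and 101. Its partner Ifnar2 had 830, 766, 537 and 1359, and its log2 difference for exercise with tumor was 1.34. Ifngr1, which binds interferon gamma, had 1637, 1489, 1275 and 2733 with a difference of 1.10 in that comparison. Scaling by library totals alone lowers these differences of Ifnar2 and Ifngr1. It moved the median of all rows for exercise with tumor to -0.59. Ifngr2 had 309, 329, 349 and 249. Il10rb, shared by the lambda and interleukin 10 receptors, had 553, 505, 202 and 305.

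Among the genes that pass the signal on, the kinase gene Tyk2 had 193, 153, 73.5 and 109, and was lower past 2-fold in the tumor effect at rest. Jak1, Jak2 and Stat3 stayed within 2-fold over all 4 libraries. Of the 13 detected genes upstream of interferon, the sensors, adaptors and kinases that lead to its production, 3 were higher and 2 lower past 2-fold in the tumor effect at rest (all rows 20.6% and 25.7%), and 2 higher and 2 lower in the exercise effect with tumor (all rows 24.3% and 17.7%). Those with the widest range were Pcbp2, an adaptor that restrains antiviral signalling, with 2259, 1931, 7563 and 2720; Irf5, a transcription factor, with 115, 77.1, 107 and 250; and Tmem173, the adaptor STING, with 161, 128, 356 and 357.

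In the tumor effects the transcription factors of the response did not move together. Irf1, an early target of interferon gamma, had a normalized count of 2758, 2600, 851 and 2073. The resting tumor lung stood alone as low, with a log2 difference of -1.70 [-1.81, -1.58] against E(-)T(-), and E(+)T(+) was higher than it by 1.28 [1.16, 1.41], a call that library totals alone did not give. Irf9, the DNA-binding part of the type I complex, had 811, 804, 246 and 338. It was lower in both tumor effects, by 1.72 on the log2 scale at rest and by 1.25 with exercise, and was the only member of which this holds (7.13% of all rows were lower in both). Stat2, its partner, had 230, 185, 93.2 and 145, and was called lower in the tumor effect at rest alone (-1.29 [-1.67, -0.94]). Irf7, the factor that amplifies interferon alpha production, ran the other way with 117, 89.1, 232 and 435. Both tumor libraries exceeded both tumor-free ones for Irf7, by 2.27 [1.96, 2.62] with exercise and by 0.98 [0.67, 1.31], just under 2-fold, at rest. Irf9 and Stat2 were thus called lower in the resting tumor lung than in E(-)T(-), while Irf7 was above E(-)T(-) there without passing 2-fold.

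The sensors split as well. Ddx58, the RNA sensor RIG-I, had 400, 356, 224 and 209, within 2-fold throughout, with differences of -0.84 and -0.76 in the tumor effects without and with exercise. Ifih1, the sensor MDA5, had 241, 174, 78.9 and 143 and was lower in the tumor effect at rest (-1.60 [-2.01, -1.24]). Dhx58, which tunes both of them, had 33.9, 33.0, 63.5 and 91.0, and was higher in E(+)T(+) than in E(+)T(-) by 1.43 [0.88, 2.08]. Zbp1, a sensor of Z-form nucleic acids that can start cell death, had 42.4, 45.0, 58.1 and 179. Zbp1 was thus near the same level in 3 libraries and high in E(+)T(+), by 1.97 [1.52, 2.49] over E(+)T(-) and 1.60 [1.16, 2.10] over E(-)T(+).

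Of the 13 antiviral effectors, 4 were lower in the tumor effect at rest, close to the 25.7% of all rows, and none was higher, where 20.6% of all rows were. For exercise with tumor 5 were higher and none lower, where 24.3% and 17.7% of all rows were. Rsad2, whose product viperin makes a nucleotide that stops viral RNA synthesis, had 479, 661, 163 and 2209. E(+)T(+) stood far above the other 3 libraries and E(-)T(+) below them. The exercise effect with tumor was a 13.4-fold difference (log2 3.75 [3.52, 4.01]), the highest of any member, and without tumor it was 0.46 [0.30, 0.62]. The tumor effect on Rsad2 was -1.55 [-1.82, -1.29] at rest and 1.74 [1.62, 1.87] with exercise. Cmpk2, the mitochondrial kinase whose gene lies beside Rsad2, had 172, 113, 38.4 and 127. Its exercise effect with tumor was 1.70 [1.17, 2.33], but E(+)T(+) stayed under E(-)T(-) for Cmpk2, unlike for Rsad2.

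The 3 IFIT genes, neighbours on chromosome 19 whose products bind viral RNA, differed among themselves. Ifit3 had 1113, 871, 237 and 914: 3 libraries within 2-fold and E(-)T(+) low, by 2.23 on the log2 scale against E(-)T(-) [-2.45, -2.02]. Ifit1 had 245, 210, 124 and 205, also lowest in E(-)T(+), with a smaller gap of -0.98 [-1.31, -0.66]. Ifit2 had 121, 103, 210 and 123, and E(-)T(+) was its highest library. Its exercise effect with tumor was -0.77 [-1.13, -0.43], the lowest of the members. Ifit1 overlaps a related gene in the annotation and Ifit3 has a near copy, so reads of the family may be split or shared.

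Ifitm3, which blocks virus entry at membranes, had 8688, 11143, 13767 and 16520, all within 2-fold. Isg20, an RNA exonuclease, had 871, 1292, 905 and 1714, with its higher value in the exercised library of each pair. Its exercise effects were 0.57 [0.45, 0.69] without and 0.92 [0.80, 1.05] with tumor. Bst2, the tether that holds virus particles at the cell surface, had 58.5, 57.8, 101 and 189, and Ifi44 had 236, 191, 314 and 621. Both were called higher in the tumor effect with exercise, each by 1.69. Ifi35 had 497, 441, 179 and 374 and followed Ifit3 in being low in E(-)T(+) alone. Eif2ak2, the kinase PKR that halts translation, had 180, 131, 141 and 98.3 and stayed within 2-fold, with the value -0.52 [-0.94, -0.12] for exercise with tumor.

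The 2 MX genes, dynamin-like GTPases that trap viral particles, had few reads. Mx1 had 6, 4, 10 and 27 reads, a normalized count of 5.0, 3.62, 11.0 and 31.3. E(+)T(+) was above E(+)T(-) by 2.80 [1.58, 5.08], the largest tumor effect with exercise of any member, with a wide interval. Mx2 had 15.3, 19.3, 12.1 and 19.9 and was called nowhere.

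The OAS family makes a nucleotide messenger that switches on an RNA-degrading enzyme, although Oasl1 lacks this activity. In Oasl1, Oas3 and Oas2 the order of the libraries differed from that of most other members. Oasl1, which restrains Irf7 translation, had 6, 26, 62 and 87 reads, a normalized count of 4.98, 23.8, 67.9 and 101. Oas3 had 7, 18, 45 and 55 reads, or 5.83, 16.5, 49.2 and 64.1. Oas2 had 6, 20, 18 and 36 reads, or 4.99, 18.4, 19.7 and 41.9. For all 3 the untreated resting lung was the lowest library and E(+)T(+) the highest. The same held outside the family for Ifitm3, Isg20, Zbp1 and Socs1. Oasl1, Oas3 and Oas2 were also the only members higher in both tumor effects (6.82%, against 7.50% of all rows). Library totals alone ended the call of Oas2 in the tumor effect with exercise.

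Without tumor, exercise went with a difference of 2.05 [0.92, 3.80] in Oasl1, 1.69 [0.48, 3.45] in Oas2 and 1.36 [0.15, 2.98] in Oas3. The lower ends rest on 6 or 7 reads in E(-)T(-). The highest share seen for the tumor genes named above was 1.47%. At that share reads of E(-)T(+) would be 4.18% of the E(+)T(-) value of Oasl1, 4.39% for Oas3 and 1.58% for Oas2. Whether reads were carried over was not tested. The tumor effect at rest was 3.53 [2.53, 5.24] in Oasl1, 2.88 [1.89, 4.45] in Oas3 and 1.79 [0.56, 3.57] in Oas2. With tumor, the exercise effect was called for Oas2 alone of the 3 (1.05 [0.24, 2.0]), and library totals alone or a pseudocount of 4 ended that call. For Oasl1 and Oas3 it was 0.57 [0.10, 1.08] and 0.37 [-0.21, 0.98], and both turned negative by library totals alone.

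The remaining pair of the family differed. Oas1a, one of several similar Oas1 copies among which reads may be shared, had 31.4, 24.8, 43.8 and 91.0, with E(+)T(+) apart from the rest. Oasl2 had 252, 158, 77.8 and 228, the order seen for Ifit3, with a tumor effect at rest of -1.68 [-2.09, -1.31] and an exercise effect with tumor of 1.54 [1.15, 1.96].

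**Figure D5:**
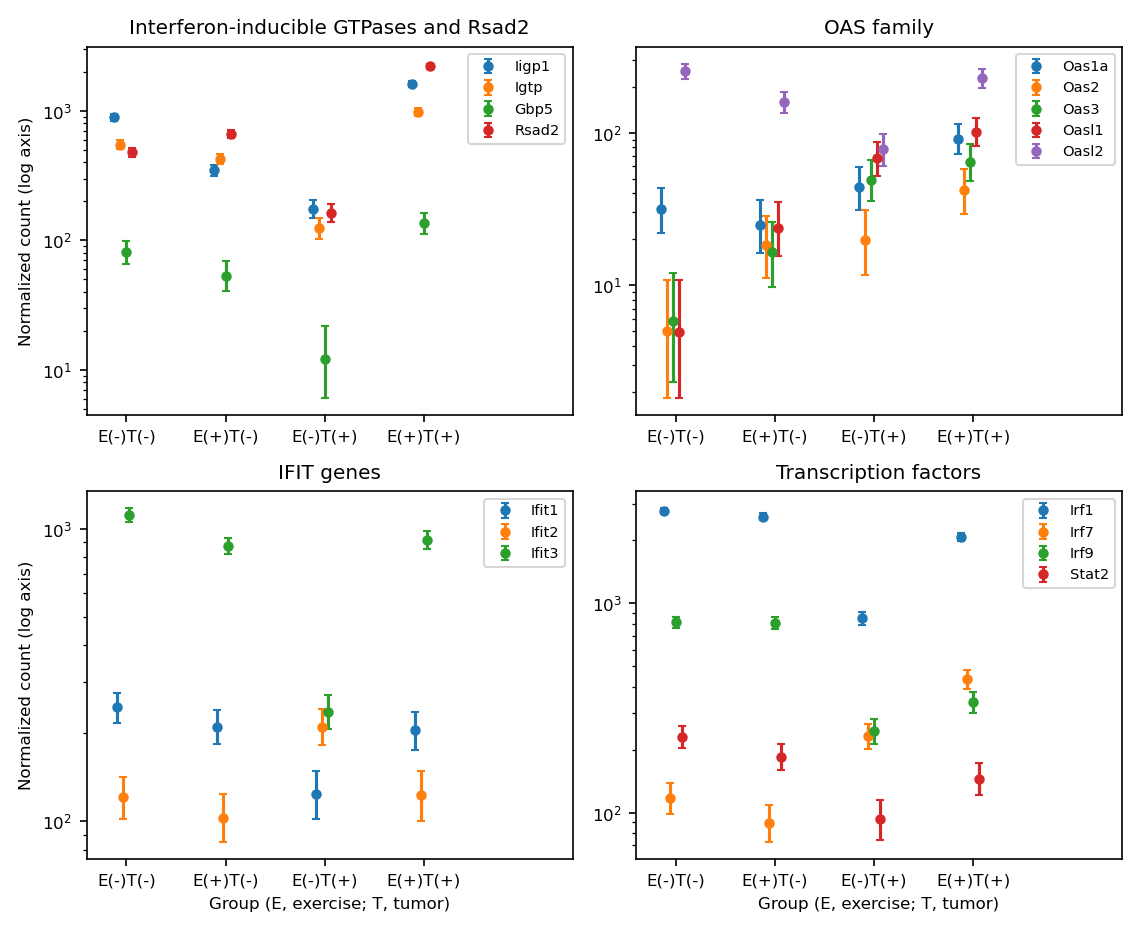
Normalized counts (log axes) of 16 members in the 4 libraries, with exact 95% Poisson limits of the reads as bars, for GTPases with Rsad2, the OAS family, the IFIT genes and the transcription factors. Iigp1, Igtp, Gbp5 and Rsad2 are lowest in E(-)T(+) and highest in E(+)T(+), while Oas2, Oas3 and Oasl1 are lowest in E(-)T(-).

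Among the modifiers, Isg15, the ubiquitin-like protein that is joined to other proteins in infected cells, had 181, 152, 198 and 365. Its 3 lower libraries lay close together, and E(+)T(+) exceeded E(+)T(-) by 1.25 [0.98, 1.54], a call that library totals alone did not give. Herc6, the ligase that attaches Isg15 in mice, had 164, 146, 37.3 and 115 and was low in E(-)T(+) alone (-2.11 [-2.71, -1.61] against E(-)T(-)). Usp18, which removes Isg15 and also blocks the alpha and beta receptor, had 123, 91.9, 31.9 and 112. Its tumor effect at rest was -1.92 [-2.58, -1.37] and its exercise effect with tumor 1.79 [1.21, 2.47]. The ligase and the protease of the Isg15 system were thus both low in the library in which Isg15 itself was not.

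Parp14, an enzyme that adds ADP-ribose, had 531, 632, 186 and 394, and was called lower in the tumor effect at rest (-1.51) and higher in the exercise effect with tumor (1.08). Parp9 had 332, 236, 192 and 310 and its binding partner Dtx3l had 380, 281, 331 and 247. These genes overlap on chromosome 16, so their reads may be shared, and their exercise effects with tumor were 0.69 [0.41, 0.98] and -0.42 [-0.68, -0.17]. Trim30a, a member of a family of similar TRIM genes, had 366, 424, 348 and 342, one of the flattest profiles of the 44.

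Of the feedback inhibitors, Socs1, which blocks Janus kinases, had 23.7, 30.3, 44.9 and 46.7 and was within 2-fold throughout. Among 9 further inhibitors of the pathway, Socs3, a related protein that mainly answers to interleukin 6 family signals, had the widest range with 274, 550, 1507 and 3592, higher in both exercise and both tumor comparisons. Ptpn6, a phosphatase that dampens Janus kinase signalling, had 561, 433, 249 and 636, and Trex1, which clears stray DNA, had 239, 130, 192 and 325.

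The 7 interferon-inducible GTPases, which attack the vacuoles in which microbes hide, lay mostly on the same side in each comparison. In the tumor effect at rest 6 of 7 were lower past 2-fold, where 25.7% of all rows were, and none was higher, where 20.6% were, with a group median of -1.52. For exercise with tumor 6 of 7 were higher and none lower (all rows 24.3% and 17.7%), with a median of 1.56, and by library totals alone 3 kept the call (Gbp5, Igtp and Iigp1) and Gbp7 turned negative. Without tumor the exercise effect was below 0 for all 7, and its median was -0.50. In the tumor effect with exercise 4 were higher and none was lower (all rows 14.9% and 13.0%).

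Iigp1, an immunity-related GTPase, had 892, 348, 175 and 1601. Exercise alone and tumor alone both went with a lower level, and the library with both was the highest. The exercise effect was -1.36 [-1.53, -1.19] without tumor and 3.18 [2.95, 3.44] with it, and the tumor effect was -2.34 [-2.60, -2.11] at rest and 2.20 [2.04, 2.37] with exercise. Against E(-)T(-), E(+)T(+) differed by 0.84 [0.73, 0.96]. Iigp1 was the only member lower past 2-fold in the exercise effect without tumor, and it belongs to a family of similar genes among which reads may be split.

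Igtp, of the same family, had 548, 423, 124 and 979. It was low in E(-)T(+) (-2.14 [-2.45, -1.86]) and high in E(+)T(+), by 2.97 [2.70, 3.28] over E(-)T(+) and by 1.21 [1.04, 1.38] over E(+)T(-). Gbp5, a guanylate-binding protein that promotes the inflammasome, had 81.6, 53.3, 12.1 and 135. Its 11 reads in E(-)T(+) gave a tumor effect at rest of -2.65 [-3.81, -1.86] and an exercise effect with tumor of 3.38 [2.60, 4.53]. With Rsad2 and Iigp1, these were the 4 members lower past 2-fold in the tumor effect at rest and higher in the tumor effect with exercise (9.09%, against 1.93% of all rows). The calls of Gbp5 and Igtp in the tumor effect with exercise, 1.33 and 1.21, were not given by library totals alone.

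Irgm1, which controls the other immunity-related GTPases, had 37.3, 34.9, 49.4 and 147, high in E(+)T(+) alone and not low in E(-)T(+). Gbp2 had 615, 435, 214 and 631, and Gbp3 had 204, 145, 96.5 and 228. For both, the exercised tumor lung was at the level of the untreated resting lung, with differences of 0.04 [-0.13, 0.20] and 0.16 [-0.12, 0.44] that turned negative by library totals alone. Gbp7 had 824, 579, 316 and 387 and did not show the high value of the others in E(+)T(+), being lower there than in E(-)T(-) by 1.09 on the log2 scale [-1.28, -0.91]. The guanylate-binding genes lie in a cluster of similar sequences, so reads may be split among them.

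The last 3 members were lower or at a like level in the tumor libraries. Rtp4, a chaperone of membrane receptors, had 426, 405, 238 and 367 and was within 2-fold throughout. Xaf1, which favours cell death, had 328, 419, 132 and 253, and Samd9l, which restrains translation and growth, had 291, 325, 132 and 210. Both were called lower in the tumor effect at rest, by 1.31 and 1.14 on the log2 scale.

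The members were also grouped by the letters in their promoters, with no test. The 20 genes with ISRE letters had a median of -0.91 in the tumor effect at rest and the 14 with a window but no such letters -1.23. For exercise with tumor the medians were 0.86 and 0.93. In the tumor effect with exercise they were 0.59 and -0.01, and in E(+)T(+) against E(-)T(-) 0.44 and -0.39. The 11 genes with GAS letters and the 23 without had medians of -0.35 and -1.07 in the tumor effect at rest, 0.92 and 0.87 for exercise with tumor, and 0.72 and -0.14 in E(+)T(+) against E(-)T(-).

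A wider list of 59 interferon-linked genes past the filter and outside the 44 was read in the same way. In the exercise effect without tumor 1 was higher and 5 lower, where 5.28% and 4.70% of all rows were, and in the tumor effect at rest 7 were higher and 22 lower, where 20.6% and 25.7% of all rows were. In the exercise effect with tumor 27 were higher and 7 lower, where 24.3% and 17.7% of all rows were. In the tumor effect with exercise 15 were higher and 11 lower, where 14.9% and 13.0% of all rows were. In E(+)T(+) against E(-)T(-) 10 were higher and 12 lower, where 14.8% and 14.4% of all rows were. Those with the widest range were Gbp6, Cxcl9 and Cd69. Gbp6, another guanylate-binding gene, had 180, 101, 1 and 87 reads, so its low value in E(-)T(+) rests on a single read. Cxcl9, a chemokine that draws T cells and answers to interferon gamma, had a normalized count of 27.9, 7.28, 8.84 and 265. Cd69, an early activation marker of lymphocytes, had 33, 9, 1 and 52 reads. E(+)T(+) held the highest value of Cxcl9 and Cd69.

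The cell types that could carry these transcripts differed between the libraries as well. The 9 detected T cell markers summed to 668, 586, 107 and 550, and the 7 B cell markers to 884, 858, 31.1 and 256, with 5 of them at 0 reads in E(-)T(+). The 7 monocyte markers summed to 5863, 5444, 3027 and 10403. The 5 markers of plasmacytoid dendritic cells, the main makers of interferon alpha, summed to 502, 668, 221 and 840. By normalized count each of these 4 sums was lowest in E(-)T(+), as 24 of the 44 members were. The monocyte and plasmacytoid sums were highest in E(+)T(+), as 22 members were on that scale. The single plasmacytoid markers did not share that order: 3 of 5 were below 0 in the tumor effect with exercise, with a median of -0.38. Nor did all monocyte markers: in the tumor effect at rest 3 of 7 were above 0 and 1 was lower past 2-fold, with a median of -0.54. Other types ran differently. The 8 natural killer cell markers summed to 1242, 930, 470 and 327, lowest in E(+)T(+), the 7 detected alveolar macrophage markers to 7827, 6304, 9804 and 13320, although 4 of the 7 were below 0 in the tumor effect with exercise, with a median of -0.61, and those of tumor-associated macrophages were highest in E(-)T(+), as given above. Their part in the members' values was not tested.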

How the data were processed

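Lung RNA of 4 groups was sequenced in 1 library each with the QuantSeq kit, whose reads lie at transcript ends. The authors aligned reads with Bowtie2, counted them per gene with bedtools and normalized the counts by the quantile method of edgeR. The submitters' processing notes name mm10. Versions, annotation and use of strand are not given in the sources used here, so overlapping, antisense and near-identical genes may share or split reads. The values deposited by the authors are log2 values, found to be log2(normalized count + 1) at 3 decimals.

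Whole reads were recovered by fitting library sizes and 1 dispersion (0.372) of negative binomial quantiles to 12 low patterns. The reads then gave 100.00% of the values within 0.001, the tolerance used, and 99.76% at all 3 decimals. The recovery was tested on simulated data. Differences were taken between deposited log2 values (pseudocount 1), so folds of low genes are understated. Exact (Clopper-Pearson) 95% intervals of read ratios cover counting error only, and reads copied by PCR are not separate molecules. The unit is log2 and groups hold 1 library, so no model was fitted and no test was run.

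The members, the other gene and marker lists and the 2-fold rule were chosen with earlier results of these data known. Values in all 4 libraries were printed for the 3 members highest and lowest in each comparison, those past 2-fold in exercise without tumor, the members of each role group with the highest mean and, for other lists, receptors and up to 3 genes with the widest range. An item of the pathway lists is not reported here. Further members were named after their values were seen. Promoter windows and gene positions came from RefSeq on GRCm38.p6, the assembly that mm10 stands for. Alternatives were a pseudocount of 4, no filter, a filter of 50, and scaling by library totals, by totals without hemoglobin genes and Rn45s, and by median-of-ratios size factors. Python 3.11.15, numpy 2.4.6, pandas 2.3.3, scipy 1.17.1 and matplotlib 3.10.9 were used.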

Additional observations from a re-analysis of the deposited data

Results flagged for a closer look

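Opposite effects past 2-fold were seen in 4 members, and none of these differences was tested, since each group is 1 library. The exercise effect on Iigp1 was negative without tumor and positive with it, a difference of 4.54 on the log2 scale, and its tumor effects at rest and with exercise differ by the same 4.54. The tumor effects at rest and with exercise were likewise opposite for Rsad2, with a difference of 3.29, for Gbp5, with 3.98, and for Igtp, with 3.34. The resting tumor library E(-)T(+), with low endothelial and epithelial markers, and the exercised tumor library E(+)T(+), with 31.4% hemoglobin reads and high neutrophil markers, enter all of these, and their part was not tested.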

How the results depend on the processing

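No paired analysis was possible because each group has 1 library, and for the same reason no library could be left out within a group. With a filter of 50 on the mean normalized count, 37 members remained: 0 instead of 3 were higher both for exercise without tumor and for tumor at rest, since Oas2, Oas3 and Oasl1 fell under the filter, and against E(-)T(-) the library E(+)T(+) was higher for 8 instead of 13, with a median of -0.13 instead of 0.03. With library totals alone, which moved the median of all rows to -0.08, 0.07, -0.59, -0.41 and -0.52 in the 5 comparisons, 5 members were higher in the tumor effect at rest, and 8 were higher and 3 lower, with a median of 0.31, for exercise with tumor. On the same scale 5 were lower in the tumor effect with exercise, with a median of -0.01, 8 were lower in E(+)T(+) against E(-)T(-), with a median of -0.47, and the exercise effects differed upward for 14 instead of 22. Median-of-ratios factors gave 5 higher in the tumor effect at rest, and totals without hemoglobin genes and Rn45s gave 4 lower and a median of -0.15 in E(+)T(+) against E(-)T(-). A pseudocount of 4 ended the calls of Oas1a and Oas2 for exercise with tumor, and both it and totals without hemoglobin genes and Rn45s ended that of Isg15 in E(+)T(+) against E(-)T(-). No member changed sign under any of these settings in a comparison in which it was called. Differences that were not called did change sign, and some members were then no longer highest in E(+)T(+), as given above. Of 220 single differences, library totals alone moved 108, totals without hemoglobin genes and Rn45s 15 and median-of-ratios factors 1. Depth limits Mx1, Oas2, Oas3 and Oasl1, with 4 to 7 reads in their lowest library.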
